A study of Rattus norvegicus with 10 samples.

Results

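The genes described here are 10 immediate early genes of the rat: the zinc finger transcription factors Egr1, Egr2 and Egr3, the synaptic gene Arc, the orphan nuclear receptors Nr4a1, Nr4a2 and Nr4a3, the Kruppel-like factor Klf4, the mRNA decay factor Zfp36 and the phosphatase Dusp1. They were chosen by gene name, through the RefSeq mRNA accession that the array gives for each probe, with no threshold on a measured value. Each of the 10 had 1 probe, no spot of which the scanner software marked as an outlier, and all 10 passed the filter on dim probes among the 19932 RNAs tested.

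Immediate early genes are transcribed within minutes of a stimulus without new protein synthesis, because the factors that switch them on, chiefly serum response factor and CREB, are already bound or waiting in the cell. In the spinal cord they are widely used as markers of neuronal activity after noxious stimulation, and glial, vascular and immune cells induce them as well. Some of their products limit the response that induced them: Zfp36 (tristetraprolin) binds AU-rich elements and speeds the decay of cytokine mRNAs, and Dusp1 removes the activating phosphates from MAP kinases.

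The RNA came from the lumbar enlargement of the spinal cord of adult male Sprague-Dawley rats, with 1 one-colour array per rat. The 5 rats of the morphine tolerance group (MT, rats 1 to 5) had been given intrathecal morphine, 10 μg in 10 μl, for 7 days with 2 injections a day, and the 5 rats of the normal saline group (NS, rats 6 to 10) had been given 10 μl of saline on the same schedule. According to the study's methods, the cord was taken about an hour after a last morning injection on the following day, so each MT value combines a course of morphine with a recent dose, and these cannot be told apart in this design. Both groups had intrathecal injections, and no uninjected rats are among the samples. The question asked of the arrays was which RNAs differ between tolerant cord and saline cord.

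Values below are normalized log2 intensities, that is, scanner intensities on a log2 scale after quantile normalization between arrays, so that 1 unit is a doubling. A probe's level cannot be set against that of another probe. The share of spots well above background was 81.1% to 83.9% per array in the MT group but 58.6% to 79.6% in the NS group. By the scan times in the array headers, MT rats 1, 3, 4 and 5 were scanned together (scan 1), MT rat 2 with NS rats 6, 7 and 10 (scan 2), and NS rats 8 and 9 together (scan 3), whose 2 arrays had the lowest shares of spots above background. Only scan 2 held both groups. All neuron, astrocyte, oligodendrocyte and microglia markers with a matched probe (9, 5, 6 and 8 genes) passed the filter. So did 6 of 7 skeletal muscle markers and 5 of 6 dorsal root ganglion markers, so passing it does not identify the tissue. In a piece of whole cord, fewer cells of a type and less RNA per cell cannot be told apart.

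The promoters of these genes are known for their response elements. RefSeq (GRCr8) start sites gave a window of 250 bases before the start for 7 of the 10 genes, and Egr3, Arc and Nr4a3 had none in the table. The CArG box, the element of serum response factor, was found on either strand in 3 of the 7 windows, against 1.5% of 33465 windows of all genes. The 3 were those of Egr1, with boxes beginning at -105 and -83 from the start, Egr2 at -83, and Zfp36 at -32. The core of the CREB element, TGACG, was found in 5 of the 7, against 18.2% of all windows, and the full element TGACGTCA, in which the core occurs on both strands, in Dusp1 alone of the 7, at -124, against 1.59%. The windows of Egr1, Egr2, Zfp36 and Dusp1 are printed because they carry these elements. Capitals mark CArG boxes and TGACG cores on either strand.
Zfp36, chr1:92799109-92799358, minus strand: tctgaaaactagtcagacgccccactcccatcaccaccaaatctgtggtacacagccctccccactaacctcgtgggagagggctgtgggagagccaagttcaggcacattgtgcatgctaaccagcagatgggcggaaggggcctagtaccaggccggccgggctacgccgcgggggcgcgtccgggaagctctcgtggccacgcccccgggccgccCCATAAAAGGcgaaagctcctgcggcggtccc
Egr1, chr18:26736828-26737077, plus strand: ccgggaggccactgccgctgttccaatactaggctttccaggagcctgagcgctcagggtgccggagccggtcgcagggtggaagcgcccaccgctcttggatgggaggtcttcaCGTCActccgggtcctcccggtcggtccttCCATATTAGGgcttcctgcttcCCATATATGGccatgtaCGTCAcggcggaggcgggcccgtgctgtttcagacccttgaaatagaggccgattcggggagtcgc
Egr2, chr20:21054442-21054691, minus strand: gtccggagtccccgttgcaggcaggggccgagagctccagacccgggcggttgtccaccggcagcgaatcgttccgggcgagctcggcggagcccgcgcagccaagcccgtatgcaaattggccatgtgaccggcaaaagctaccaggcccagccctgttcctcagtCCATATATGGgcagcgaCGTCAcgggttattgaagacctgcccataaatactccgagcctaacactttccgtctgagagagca
Dusp1, chr10:17184603-17184852, plus strand: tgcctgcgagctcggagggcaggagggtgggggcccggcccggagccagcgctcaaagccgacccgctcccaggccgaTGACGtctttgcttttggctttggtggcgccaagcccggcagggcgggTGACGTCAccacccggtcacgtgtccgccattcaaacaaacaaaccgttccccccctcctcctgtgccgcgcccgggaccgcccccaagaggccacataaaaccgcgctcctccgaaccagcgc
Of the other motifs searched on both strands, the Egr site GCGNGGGCG occurred in the windows of Nr4a1 and Zfp36 (4.29% of all windows), TATAAA in that of Klf4 (12.9%), the NF-kB site in that of Nr4a1 (6.33%) and the AP-1 site TGANTCA in 0 of the 7 (6.34%). The windows of Egr2, Nr4a1, Nr4a2 and Klf4 lie inside the annotated span of the gene, which begins farther upstream. A match describes the letters of the window and not the binding of a factor.

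The 10 genes had no common direction. The mean was higher in the MT group for 5 of them (49.8% of all RNAs) and lower for the other 5, and their median log2 fold change was 0.04, against -0.00103 over all RNAs tested. The study's criteria, read as a linear change of more than 1.5-fold and a p under 0.05 before adjustment, were met by 2 genes, Klf4 and Zfp36, both higher in the MT group. Of all RNAs, 2.72% met them, 1.73% upward and 0.998% downward. The methods write the fold criterion on the log2 scale, and read in that way 0 of the 10 genes met it, since the largest log2 fold change among them was 0.74. In limma, 0 of the 10 passed an adjusted p of 0.05 over all RNAs (0.201% of all RNAs did), 3 had an unadjusted p below 0.05 (16.3% of all RNAs did), and the test named in the methods, with the same adjustment, likewise passed 0.

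**Figure D1:**
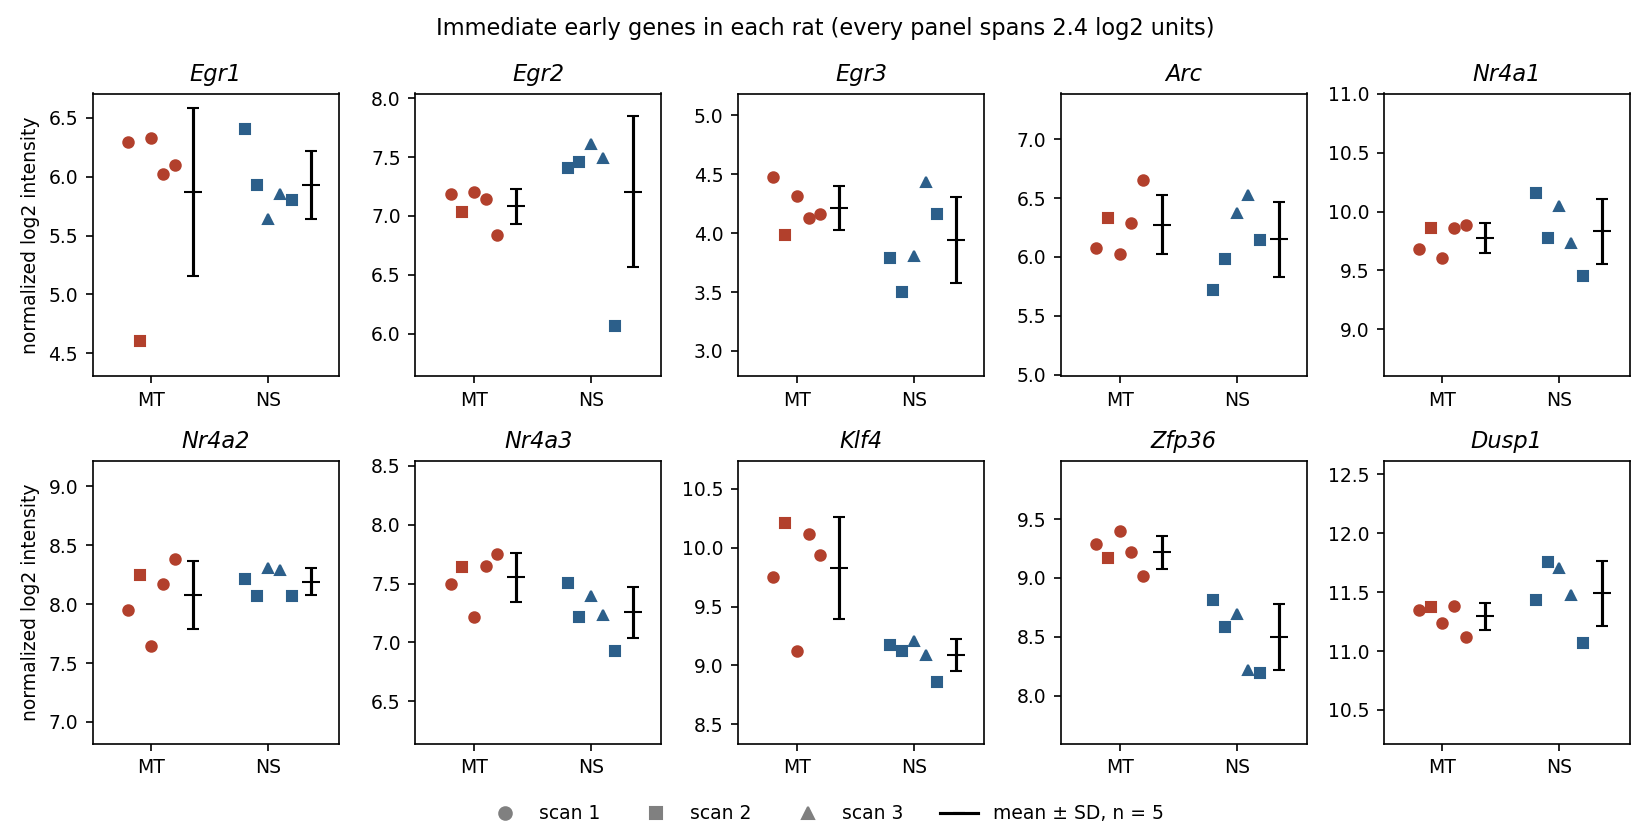
Normalized log2 intensity of each of the 10 genes in every rat, with 1 panel per gene on a vertical axis of the same span, MT rats in red and NS rats in blue, the marker shape giving the scan and the bar the mean ± SD of 5 rats. Zfp36 separates the groups, Klf4 does so apart from MT rat 3, and Egr1 and Egr2 each have 1 rat far below its group (MT rat 2 at 4.61 and NS rat 10 at 6.07).

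Zfp36, on chromosome 1 of GRCr8 from 92796628 to 92799108, gave the clearest difference. Its values were 9.29, 9.17, 9.40, 9.22 and 9.02 in MT rats 1 to 5 and 8.81, 8.59, 8.70, 8.22 and 8.19 in NS rats 6 to 10. The lowest MT rat lay above the highest NS rat, which was the case for 1 of the 10 genes. Over all RNAs, the groups did not overlap for 5.64%, with 2.34% higher and 3.3% lower in the MT group. The group means were 9.22 ± 0.14 and 8.50 ± 0.28 (SD, n = 5 each), a log2 fold change of 0.72 (standard error, SE, 0.14, 95% interval 0.42 to 1.02) or 1.64-fold. The limma unadjusted p was 0.000357 and the adjusted p 0.0697, and a two-sided exact permutation test over the 252 ways to split the rats gave p = 0.00794, the smallest that 5 rats against 5 allow. Here and below, this test treats the rats as interchangeable, although only scan 2 held both groups. Any RNA whose groups do not overlap gets this smallest p. With scan as a random block in limma, the log2 fold change was 0.69 (adjusted p = 0.459). The promoter window of Zfp36 printed above holds a CArG box, as do those of Egr1 and Egr2, whose groups overlapped. The part of this element in the values was not tested. Within scan 2 alone, MT rat 2 (9.17) lay above NS rats 6, 7 and 10, and the difference was 0.64 (unadjusted p = 0.0822).

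Klf4, a factor best known for its part in endothelial and myeloid cells and in pluripotency, is on chromosome 5 from 75074107 to 75079182. MT rats 1 to 5 had values of 9.75, 10.21, 9.12, 10.12 and 9.94, and NS rats 6 to 10 had 9.18, 9.12, 9.21, 9.09 and 8.86. MT rat 3 lay inside the range of the NS rats, while the other 4 MT rats were above all of them. The means were 9.83 ± 0.43 and 9.09 ± 0.14 (SD, n = 5 each), and the log2 fold change was 0.74 (SE 0.19, 95% interval 0.32 to 1.16), or 1.67-fold. The unadjusted p was 0.00291, the adjusted p 0.130 and the two-sided exact permutation p 0.0317. Leaving out MT rat 3 raised the log2 fold change to 0.91 with an adjusted p of 0.0322. With any other rat left out, the adjusted p was 0.154 to 0.297. With scan as a random block in limma, the log2 fold change was 0.93 (adjusted p = 0.452). Within scan 2, where MT rat 2 was the only MT array and the highest of all rats, the difference was 1.16.

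Markers of neutrophils, and some of those of monocytes, were also higher in the MT group. Of 8 neutrophil markers tested, 8 had the higher mean in the MT group and 5 met the criteria, against 1.73% of all RNAs upward. Their summed normalized intensity on the linear scale was 992.8 to 1263 per MT rat, against 421.3 to 541.6 per NS rat. The 5 MT arrays alone could carry a probe past the filter. Of the 5 markers that passed the filter on all 10 arrays, 5 had the higher mean and 4 met the criteria. With no filter, 8 of 9 had the higher mean. Mmp8 was not above background on any array. No probe was matched to S100a9 or Defa7 by RefSeq accession, although the paper lists Defa7 among its up-regulated mRNAs. Of 6 monocyte markers, 3 met the criteria upward (Ccr1, Cd14 and Lyz2) and the other 3 had lower means (Fcgr3a -0.57, Itgam -0.10 and Ccr2 -0.05), and the sums ranged from 56870 to 91930 and from 34870 to 58440. In contrast, 8 of 8 microglia markers had the lower mean in the MT group and 1 (Tmem119) met the criteria, with sums of 142000 to 180000 against 170100 to 256300. Endothelial markers (4 tested) had sums of 11080 to 12860 and 10570 to 14900, and 0 met the criteria. The part of these cells in the Zfp36 and Klf4 values was not tested.

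**Figure D2:**
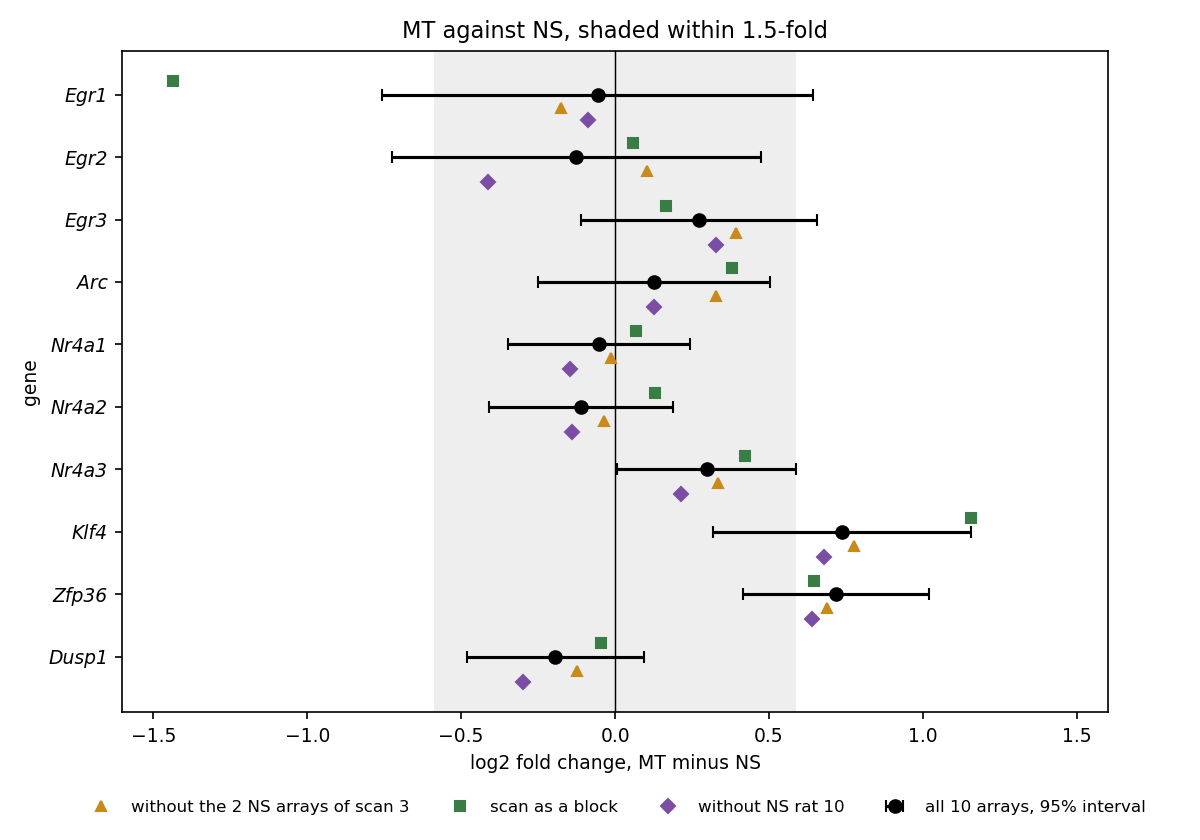
Log2 fold change of the 10 genes, MT minus NS, with the 95% interval from limma on all 10 arrays (black), and the values without the 2 NS arrays of scan 3 (triangles), with scan as a block (squares) and without NS rat 10 (diamonds). The points of Klf4 and Zfp36 lie beyond the shaded 1.5-fold zone in all 4, but their 95% intervals reach into it. Egr1 moves from -0.06 to -1.44 with scan as a block. For every gene, the value with scan as a block rests on MT rat 2, the only MT array of scan 2.

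Egr1, the founding member of its family and a quickly induced activator, is on chromosome 18 from 26737078 to 26740877. Its values were 6.29, 4.61, 6.33, 6.02 and 6.10 in MT rats 1 to 5, and 6.40, 5.93, 5.64, 5.85 and 5.80 in NS rats 6 to 10. MT rat 2 lay far below the 9 other rats, which overlapped across the groups. The means were 5.87 ± 0.72 and 5.93 ± 0.29 (SD, n = 5 each), with a log2 fold change of -0.06 (SE 0.31, adjusted p = 0.940). The 95% interval, -0.76 to 0.64, includes 1.5-fold differences either way. With MT rat 2 left out, the difference was 0.26 (unadjusted p = 0.123). Before normalization the Egr1 spot of MT rat 2 had an intensity of 35.5, against 70.5 to 97.6 in the other MT rats and 26.0 and 22.2 in NS rats 8 and 9, the dimmer arrays of scan 3, and it was well above background on all 10 arrays. As the only MT array of scan 2, MT rat 2 also sets the value within that scan and with scan as a fixed block, -1.44 (unadjusted p = 0.00726 and 0.000259, adjusted p = 1.00 and 0.246), which met the criteria downward.

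Egr2, a regulator of myelination that neurons and immune cells also induce, is on chromosome 20 from 21050149 to 21055201. MT rats 1 to 5 had values of 7.19, 7.04, 7.20, 7.14 and 6.84, and NS rats 6 to 10 had 7.40, 7.46, 7.61, 7.49 and 6.07. Of the NS rats, 4 lay above every MT rat, and NS rat 10 lay below every MT rat. With all rats the log2 fold change was -0.13 (SE 0.27, 95% interval -0.73 to 0.47, adjusted p = 0.838), and without NS rat 10 it was -0.41 (adjusted p = 0.0926). Without the 2 NS arrays of scan 3 it was 0.10, so that its direction depended on the rats included.

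Egr3, which acts downstream of activity in neurons and lymphocytes, is on chromosome 15 from 51560482 to 51565778 and its spot stood well above background in 5 of 5 MT rats but 3 of 5 NS rats, the exceptions being NS rats 8 and 9. The other 9 genes were well above background on all 10 arrays. The values of Egr3 were 4.47, 3.98, 4.32, 4.13 and 4.16 in MT rats 1 to 5 and 3.79, 3.50, 3.80, 4.44 and 4.17 in NS rats 6 to 10. The groups overlapped, and the log2 fold change was 0.27 (SE 0.17, 95% interval -0.11 to 0.66, adjusted p = 0.454). With each rat left out in turn it was 0.16 to 0.40, the highest without NS rat 9, which held the highest NS value. Without the 2 NS arrays of scan 3 it was 0.39 (adjusted p = 0.259). With scaling of arrays to a common 75th percentile, and no quantile normalization, the value was 0.72 (unadjusted p = 0.0486, adjusted p = 0.278), past the study's criteria, while the median over all RNAs was 0.08.

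Arc, whose product regulates AMPA receptor endocytosis at active synapses, is on chromosome 7 from 108444959 to 108448413. It ranged from 6.03 (rat 3) to 6.66 (rat 5) in the MT group and from 5.72 (rat 6) to 6.53 (rat 9) in the NS group, so the NS range contained most of the MT range. The highest NS values, 6.37 and 6.53, were those of NS rats 8 and 9, the arrays of scan 3. The difference was 0.13 on the log2 scale (SE 0.17, 95% interval -0.25 to 0.50, adjusted p = 0.734). Without the 2 NS arrays of scan 3 it was 0.33 (SE 0.16, adjusted p = 0.308).

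The Nr4a receptors are ligand-independent nuclear receptors that bind DNA as monomers or dimers and are induced by cAMP and calcium. Nr4a3, on chromosome 5 from 67157141 to 67198287, had values of 7.50, 7.64, 7.22, 7.65 and 7.75 in MT rats 1 to 5 and 7.51, 7.22, 7.39, 7.23 and 6.93 in NS rats 6 to 10. MT rats 2, 4 and 5 lay above every NS rat, and MT rats 1 and 3 lay among them. The means were 7.55 ± 0.21 and 7.25 ± 0.22 (SD, n = 5 each), with a log2 fold change of 0.30 (SE 0.13, 95% interval 0.0058 to 0.59). Its unadjusted p was 0.0464, its adjusted p 0.301 and its two-sided exact permutation p 0.0873, and the difference did not reach 1.5-fold.

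The other family members had lower means in the MT group and overlapping groups. Nr4a1, on chromosome 7 from 134247153 to 134268044, ranged from 9.60 (rat 3) to 9.89 (rat 5) in the MT group and from 9.45 (rat 10) to 10.15 (rat 6) in the NS group. The difference was -0.05 on the log2 scale (SE 0.13, 95% interval -0.35 to 0.24, adjusted p = 0.868). Nr4a2, on chromosome 3 from 62098739 to 62115926, ranged from 7.65 (rat 3) to 8.38 (rat 5) and from 8.07 (rats 7 and 10) to 8.31 (rat 8). Here the difference was -0.11 (SE 0.13, 95% interval -0.41 to 0.19, adjusted p = 0.703), and the wider spread lay in the MT group (SD 0.29 against 0.12). All 3 intervals of the Nr4a genes exclude a 1.5-fold decrease, and that of Nr4a3 reaches a 1.5-fold increase.

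Dusp1, on chromosome 10 from 17184853 to 17187646, is like Zfp36 a feedback gene, and its mean lay in the other direction. Its values were 11.35, 11.37, 11.24, 11.38 and 11.12 in MT rats 1 to 5 and 11.43, 11.76, 11.71, 11.48 and 11.07 in NS rats 6 to 10. The pattern resembled that of Egr2, with NS rats 6 to 9 above every MT rat and NS rat 10 below them all. The log2 fold change was -0.19 (SE 0.13, 95% interval -0.48 to 0.09, adjusted p = 0.476), and -0.30 without NS rat 10 (adjusted p = 0.181).

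Seen by rat, the genes split along the same few animals. NS rat 10 was the lowest of all 10 rats for 6 of the 10 genes (Egr2, Nr4a1, Nr4a3, Klf4, Zfp36 and Dusp1), although it was the lowest for 9.68% of the 19869 RNAs with a value on every array. It was also the lowest for 6 of 6 AP-1 subunits and for 16 of 33 other immediate early genes (48.5%). The same rat was the lowest for 7 of 9 mRNAs that Zfp36 destabilises and for 3 of 4 meningeal fibroblast markers, whose sums were 8054 to 8690 per MT rat and 3129 to 10880 per NS rat, with 4 of 4 means higher in the MT group and 0 past the criteria. The part of meningeal tissue in these values was not tested. Its share of spots above background, 79.6%, was the highest among the NS arrays. After each gene was standardized over the 10 rats, the mean over the genes was -1.07 in NS rat 10, and it lay between -0.30 and 0.46 in the 9 other rats. Within the MT group, rat 3 was the lowest for Arc, Nr4a1, Nr4a2, Nr4a3 and Klf4 and the highest for Egr1, Egr2 and Zfp36. Of all RNAs, that rat was the lowest of all 10 rats for 21.2% and the highest for 17.2%. MT rat 5 was the highest for Arc, Nr4a1, Nr4a2 and Nr4a3 and the lowest for Egr2, Zfp36 and Dusp1. MT rats 3 and 5 thus stood at opposite ends for Arc, Nr4a1, Nr4a2, Nr4a3, Egr2 and Zfp36, but not for Klf4, Egr1 or Dusp1. This is a description over 5 rats with no test. Without NS rat 10, Klf4 (0.68) and Zfp36 (0.64) still met the study's criteria, with adjusted p values of 0.154 and 0.0777.

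**Figure D3:**
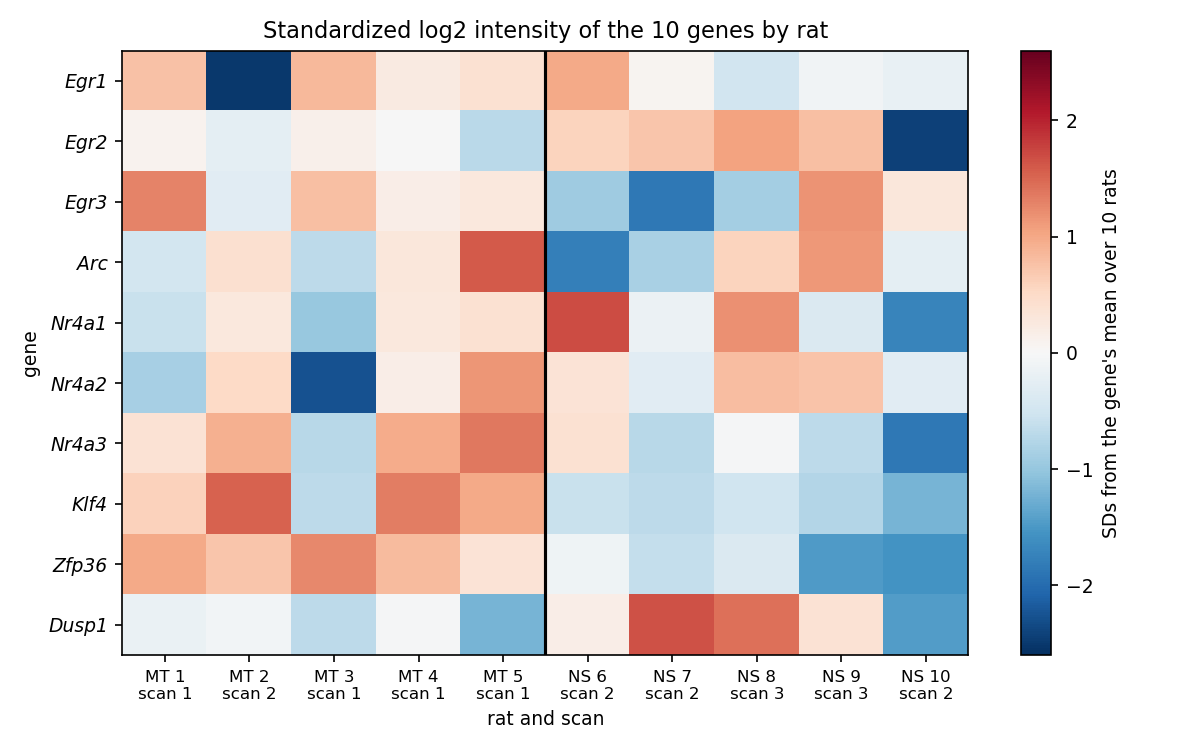
Standardized log2 intensity of the 10 genes (rows) in each rat (columns, with the scan below), in SDs from the mean of the gene over 10 rats, red above and blue below. The column of NS rat 10 is blue for most genes (mean -1.07), and MT rat 3 is low for the Nr4a genes and high for Egr1 and Zfp36.

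The genes whose values over the 10 rats were most like the mean of the standardized values were Osgin1, Cd36, Sp5, Thbd and Capn12, the first 5 of 12095 genes ranked. Their Pearson r ranged from 0.931 (Capn12) to 0.958 (Osgin1) over 10 rats, and Spearman's rho from 0.879 (Cd36) to 0.976 (Osgin1). With the group means removed, r ranged from 0.916 to 0.957, so the likeness was present within the groups. Without NS rat 10, r fell to 0.789 for Cd36 and lay between 0.868 and 0.914 for the others, and without both NS rat 10 and MT rat 3, the rats farthest from the median, it was between 0.857 and 0.987. As the highest of many correlations over few rats, these are descriptions, and 0 of the 5 genes met an adjusted p of 0.05 between the groups.

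Other genes of the same response were read from lists set by name. Of the AP-1 subunits, 6 of 9 had a probe matched by RefSeq accession (Fosb, Fosl2 and Jund had none matched). Of these 6, 4 met the criteria upward (1.73% of all RNAs did) and 4 had an unadjusted p below 0.05 in limma (16.3% did). Past the adjusted threshold there were 0, and the median log2 fold change was 0.67. Batf, a subunit of lymphoid and myeloid cells, differed by 1.46 (SE 0.27, adjusted p = 0.0689), with the MT rats between 8.51 and 9.87 and the NS rats between 7.13 and 7.92. Fos, the classical activity marker, differed by 0.75 (SE 0.26, adjusted p = 0.213) with overlapping groups, and by 1.32 with scan as a fixed block, a value that rests on MT rat 2 (unadjusted p = 0.0139). Atf3, a stress-induced factor, differed by 0.74 (SE 0.21, adjusted p = 0.152), with every MT rat (9.99 to 10.47) above every NS rat (8.61 to 9.76). Junb was the other gene of the 4, with 0.59. Without NS rat 10, the number fell from 4 to 2.

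Of 33 other immediate early genes tested, 4 met the criteria upward and 1 downward, against 1.73% and 0.998% of all RNAs. A higher mean in MT rats was found for 24 (49.8% of all RNAs), and the median difference was 0.16 on the log2 scale. Socs3, an inhibitor of cytokine receptor signalling, passed the adjusted threshold with 0.74 (SE 0.12, adjusted p = 0.0460), as MT rats lay between 6.29 and 6.85 and NS rats between 5.74 and 6.04. With 1 rat left out its adjusted p was 0.0322 (MT rat 3), 0.0458 (NS rat 10) or, for any of the 8 other rats, 0.053 to 0.181, and it was 0.163 without the 2 NS arrays of scan 3, 0.240 with scan as a random block and 0.584 with scan as a fixed block. Gadd45g, a stress-response gene, differed by 0.86 (SE 0.17, adjusted p = 0.0797), and Myc, a growth regulator, by 0.72 (SE 0.16, adjusted p = 0.0973), both with no overlap of the groups. With scan as a fixed block Myc was at 0.60 (unadjusted p = 0.0809) and no longer met the criteria. The remaining gene past the criteria upward was Ier3 (0.67), and the one downward was Per1. Without NS rat 10 the median of the list fell to 0.072 with 20 of 33 means higher, and without NS rat 6 the number past the criteria upward was 7. Npas4, a factor restricted to neurons, was not above background on any array, and no probe was matched to Homer1, Rasd1 or Cebpd.

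**Figure D4:**
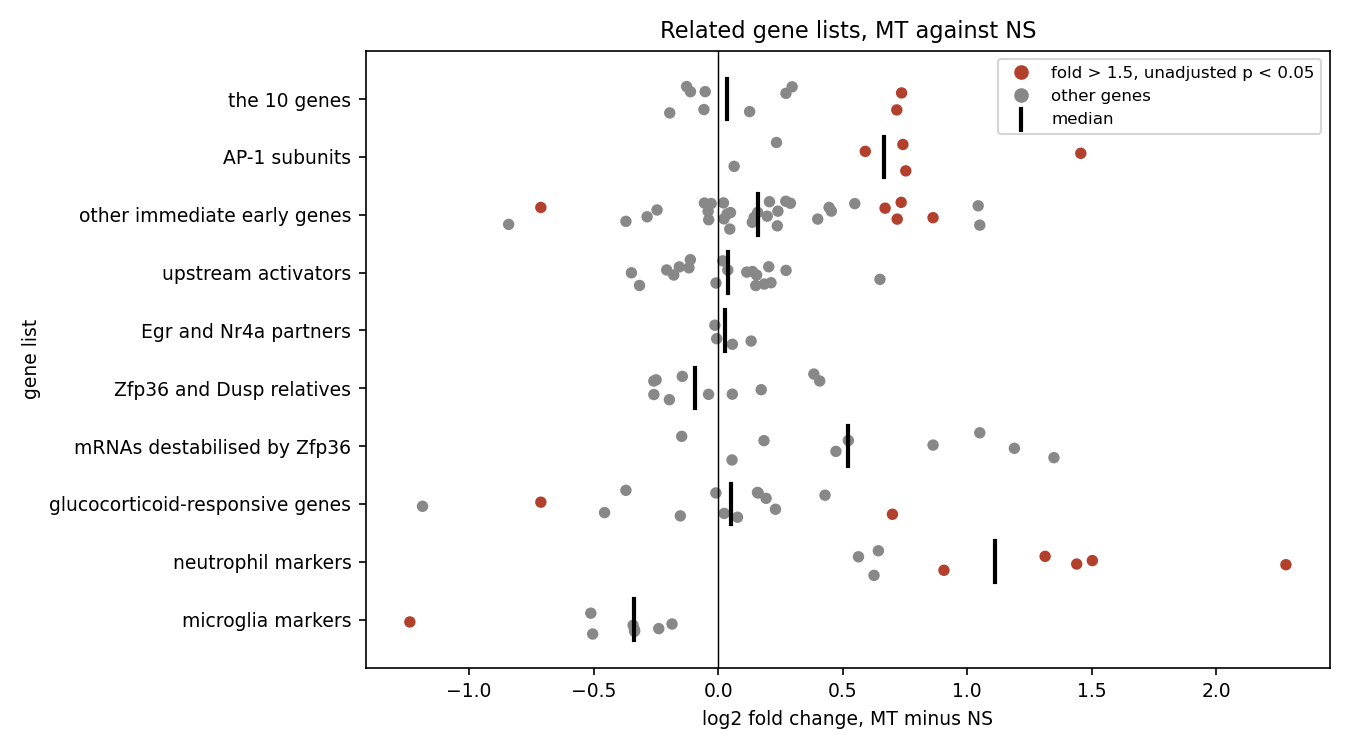
Log2 fold change, MT minus NS, of every tested gene in each list (1 point per gene), red where the fold exceeded 1.5 with an unadjusted p below 0.05, with the median of each list as a black bar. The 10 genes have a median of 0.04 with 2 red points, the AP-1 subunits a median of 0.67 with 4, and the neutrophil markers a median of 1.11 with 5.

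The factors that drive these genes and the proteins that bind their products were read in the same way. Of 19 upstream activators tested, 0 met the criteria, the median was 0.04, and 3 had an unadjusted p below 0.05 in limma, near the 16.3% of all RNAs. Serum response factor (Srf) was at 0.12 (adjusted p = 0.529) and Creb1 at 0.27 (adjusted p = 0.387). Of 4 partners and corepressors of Egr and Nr4a proteins tested, 0 met the criteria (median 0.03). Relatives of Zfp36 and Dusp1 (10 tested) had a median of -0.09 and 0 calls, among them Zfp36l1 (0.17) and Zfp36l2 (-0.25). The mRNAs that Zfp36 is known to destabilise (9 tested) had higher means in the MT group for 8 genes with a median of 0.52, but their spread was wide and 0 had an unadjusted p below 0.05. Without NS rat 10 the median was 0.23 with 6 of 9 means higher, and without NS rat 6 it was 0.89 with 4 genes past the criteria. Tnf, its best known target, differed by 0.86 (SE 0.43, adjusted p = 0.349). A list of 14 glucocorticoid-responsive genes is relevant because Zfp36, Dusp1 and Per1 respond to these hormones. Of the 14, 1 met the criteria upward and 1 downward (1.73% and 0.998% of all RNAs), with a median of 0.05. MT rat 3 was the highest of all rats for 9 of the 14, and without it the median was -0.13 with 4 means higher. Without MT rat 4 the median was 0.21 with 9 means higher, and with scan as a fixed block it was -0.25. Angptl4, a lipase inhibitor, differed by 0.70 (SE 0.17, adjusted p = 0.121) and Per1, a clock gene, by -0.71 (SE 0.22, adjusted p = 0.183). Without the 2 NS arrays of scan 3, Per1 was at -0.47 and no longer met the criteria.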

How the data were processed

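Arrays of 5 MT and 5 NS rats were analysed, with 1 array per rat. For every spot, the authors deposited a linear, background-subtracted intensity made with Agilent Feature Extraction 11.0.1.1, together with flags (outlier, well above background). They also deposited quantile-normalized log2 values of all arrays in 1 table. Each array held 43553 spots, 42136 of them no controls, for 24684 probes, and 0 were saturated. Here the deposited intensities, floored at 1, were log2-transformed and quantile normalized in limma 3.58.1 (R 4.3.3), outlier spots were left out, and spots and probes of a gene were averaged. Probes with over 50% of spots well above background on 5 or more arrays were kept. Genes were named through the RefSeq annotation of GRCr8, and positions are those of genes. A gene with no matched probe may still be on the array under an accession that this annotation does not hold. The array's own design used another build, and its probe sequences are not used here.

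MT was compared with NS by limma (linear model, empirical Bayes) with Benjamini-Hochberg adjustment over all 19932 RNAs. No set test was run. The genes, lists and alternatives were chosen with earlier results of these data known. The genes named were the 10, up to 3 genes per related list with the largest change among those past the study's criteria, and the 5 genes most like the mean of the 10. Junb, Ier3, Srf, Creb1, Atf1, Crebbp, Tnf, the Zfp36 relatives and the cell markers fall outside this rule and were named with their values known. The steps were tested on simulated arrays. The alternatives were 75th percentile scaling, normexp (offset 50, on median signals because no mean signals are in the files), the deposited log2 table (24484 of 24529 entries matched a probe, r of 0.993 to 0.999 with the values here across probes, which are not replicates), no filter or one that required all 10 arrays, the Student test that the methods name, scan as a fixed or random block, scan 2 alone, each probe on its own, outlier spots kept, and leaving out each rat. Leaving out the 2 NS arrays of scan 3 was added after seeing the data. Plots used Python 3.11.15 and matplotlib 3.10.9. The number of arrays limits the precision.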

Additional observations from a re-analysis of the deposited data

Results flagged for a closer look

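In 3 of 36 groups of 5 rats checked, 1 rat lay far from the others of its group, by the gap to its nearest neighbour as a share of the whole range (Dixon's test at 95%), which chance alone gives in about 1 in 20 groups. Egr1 in MT rat 2 had a normalized log2 intensity of 4.61, with the nearest MT rat at 6.02 and the farthest at 6.33 (0.822 of the range). Egr2 in NS rat 10 was at 6.07, with the nearest NS rat at 7.40 and the farthest at 7.61 (0.866 of the range). Atf3 in NS rat 10 was at 8.61, with the nearest NS rat at 9.46 and the farthest at 9.76 (0.744 of the range).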

How the results depend on the processing

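The number of the 10 genes past the study's criteria was 2 (Klf4 and Zfp36) with all rats, 2 to 3 in the other settings and 2 each time a rat was left out. Klf4 met the criteria in all 22 alternatives (log2 fold change 0.64 to 1.16, adjusted p 0.0322 to 1.00) and Zfp36 in 21 of 22 (0.62 to 0.80, adjusted p 0.0392 to 1.00), the exception being scan 2 alone. Past the adjusted threshold the number was 0, and it was 1 with normexp (Zfp36, 0.0429), 1 with the filter on all 10 arrays (Zfp36, 0.0392) and 0 to 1 without each rat. With the Student test that the methods name, 1 related gene passed the adjusted threshold, but it was not Socs3 (0.0529). Among related genes in limma, 10 met the criteria and 1 (Socs3) passed the adjusted threshold. The latter number was 0 with 75th percentile scaling, no filter, scan as a fixed or random block, scan 2 alone and without the 2 NS arrays of scan 3, 3 with normexp (among them Batf, 0.0462, and Gadd45g, 0.0479, but not Socs3, at 0.36 and 0.0566), 5 with the filter on all 10 arrays (among them Socs3, 0.0229, Batf, 0.0389, and Gadd45g, 0.0451) and 0 to 1 without each rat, while the former ranged from 7 to 17 without each rat, the highest without NS rat 6.

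The directions of 4 genes with small differences turned. Egr1 was 0.21 with 75th percentile scaling, 0.033 with normexp and -0.17 to 0.26 without each rat. Egr2 was 0.057 with scan as a fixed block and in scan 2 alone, and 0.10 without scan 3. Nr4a1 was 0.067 with scan as a fixed block and in scan 2 alone, 4.757e-05 with scan as a random block (correlation 0.466) and -0.15 to 0.029 without each rat. Nr4a2 was 0.13 with scan as a fixed block and in scan 2 alone. The cause was not tested. The fixed block and scan 2 alone take the group difference from 1 MT and 3 NS arrays, and the lone MT array is assumed to vary like the others. No paired analysis was possible because the rats are numbered 1 to 10 and no number is shared between the groups. Low signal over background on the arrays of scan 3 limits the values of dim probes such as Egr3.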
